A study of Bos grunniens with 3 samples.

Results

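The keratin genes *KRT75*, *KRT79* and *KRT80*, which are grouped here as keratins of the companion layer and the upper hair follicle, were followed cell by cell in hair follicle cells of white yak scapular skin. They were chosen by gene symbol, and each symbol had 1 row in the gene list, ENSBGRG00000000961 for *KRT75*, ENSBGRG00000001461 for *KRT79* and ENSBGRG00000000574 for *KRT80*. They are 3 of 26924 genes and 3 of the 18 type II keratin genes on the list that had a row. By the labels of all 3 libraries, the cells came from Tianzhu white yaks (*Bos grunniens*) of about 2 years, with no treatment or genotype named in the labels, and 1 droplet library (10x Genomics, 3′ ends) was made from each of the stages anagen, when the follicle grows, catagen, when it regresses, and telogen, when it rests. Single follicles had been pulled from dispase-treated skin and dissociated with trypsin. The catagen library takes its stage from its title and its stage label, although anagen is the stage written in its protocol. The paper names 3 yaks for anagen and catagen, does not tie them to libraries and does not describe the telogen collection, so stage, animal, library and the version of the counting software cannot be told apart, and no value below has a replicate or a test.

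Type II keratins pair with type I keratins to form the intermediate filaments of epithelial cells. *KRT75* is known as the keratin of the companion layer, the single cell layer between the outer and the inner root sheath. *KRT79* is known in the mouse from the infundibulum and the upper follicle canal, including cells near the sebaceous duct. *KRT80* is found in many epithelia as cells differentiate and lies close to the desmosomes, the junctions that anchor keratin filaments. The type II keratin genes lie together in 1 gene cluster and are alike in sequence. The closest relatives of *KRT75*, the *KRT6* genes, had no row under their symbols, and whether reads of such relatives were counted as a member was not tested.

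After cells with fewer than 200 detected genes were left out, 11987 anagen, 12062 catagen and 14502 telogen cells remained, with 82816430, 51537357 and 103430933 unique molecular identifiers (UMIs, 1 for each captured RNA molecule). The median cell held 5256 UMIs in anagen, 3350 in catagen and 5583.5 in telogen, and the smallest held 2404, 500 and 500. Because of this gap, shares of cells with a UMI were taken after every cell had been thinned to 1500 UMIs, and 0 anagen, 2263 catagen and 2932 telogen cells were too shallow for that. Cell barcodes shared between libraries numbered 43 for anagen and catagen, 40 for anagen and telogen and 48 for catagen and telogen. Each library was clustered alone and without the 3 genes, into 26, 21 and 21 clusters, and 12, 13 and 8 of them took a name from marker genes. The unnamed clusters, which are called here by their leading genes, held 42.7%, 51.3% and 64.5% of the cells. Where the rounding of the linear algebra kernel moved a cluster level by over 1.5-fold, the text says so. Inner root sheath-like and hair cortex-like cells were found in all 3 libraries, also in the library labelled telogen, where they numbered 392 and 167. All intervals are exact 95% intervals and cover counting error only.

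*KRT75* had its highest level in the catagen library, *KRT79* in the telogen library and *KRT80* in the catagen library. The level of *KRT75*, as counts per 1000000 UMIs of the library (CPM), was 187 in anagen (interval 184 to 190), 319 in catagen (314 to 323) and 168 in telogen (166 to 171). The level of *KRT79* was 37.3 CPM in anagen (36.0 to 38.7), 54.2 CPM in catagen (52.2 to 56.2) and 115 CPM in telogen (113 to 118). The level of *KRT80* was 23.9 CPM in anagen (22.8 to 24.9), 72.4 CPM in catagen (70.1 to 74.7) and 34.0 CPM in telogen (32.9 to 35.2). None of the 9 intervals overlapped the other intervals of its gene, and the counts behind them ran from 1977 UMIs for *KRT80* in anagen to 17409 UMIs for *KRT75* in telogen. Among the 18 type II keratins the members ranked between 5th and 10th by UMIs in every library.

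**Figure D1:**
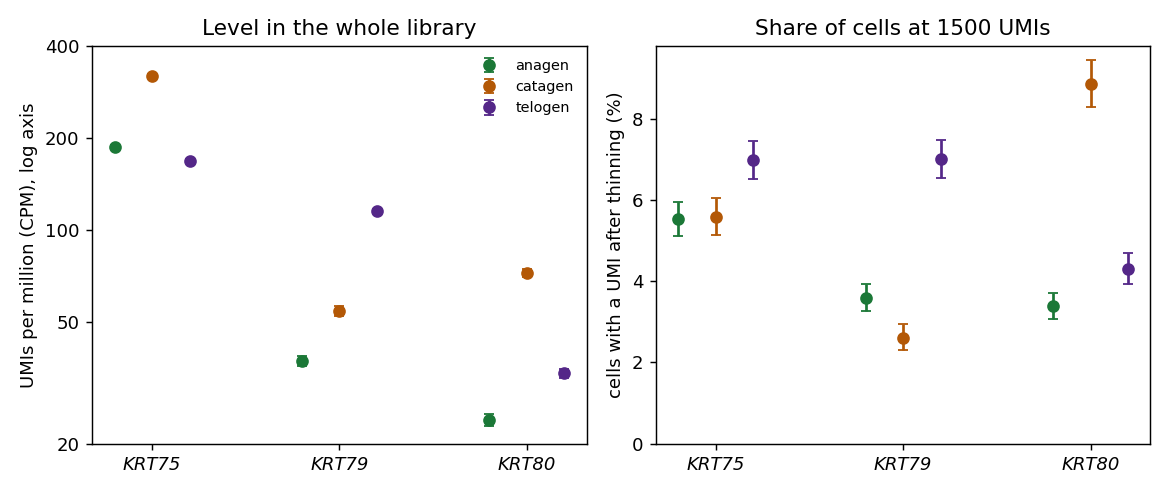
The left plot gives the level of each gene in each library in CPM on a log axis, and the right plot gives the percentage of cells with at least 1 UMI after thinning to 1500 UMIs, with exact 95% intervals for counting error as bars (in the left plot some are smaller than the points). *KRT79* is highest in telogen in both plots, at 115 CPM and 7.01% of cells, and *KRT80* is highest in catagen in both, at 72.4 CPM and 8.86%.

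As a log2 ratio of levels between whole libraries, *KRT80* was 1.60 higher in catagen than in anagen (1.52 to 1.68), above 99.4% of the 4937 genes with at least 10 CPM in either library. *KRT75* was 0.77 higher (0.74 to 0.80) and *KRT79* was 0.54 higher (0.46 to 0.61) in catagen than in anagen. Only *KRT80* passed 2-fold there, which is 1 of 3 members beside 6.68% of all genes. In telogen against anagen the ratio was 1.63 for *KRT79* (1.57 to 1.69), above 99.7% of 4667 genes, 0.51 for *KRT80* (0.43 to 0.59) and −0.15 for *KRT75* (−0.18 to −0.12). That is 1 of 3 members past 2-fold, beside 10.1% of all genes. In telogen against catagen *KRT79* was 1.09 higher (1.03 to 1.15), *KRT80* was lower at −1.09 (−1.16 to −1.02) and *KRT75* was lower at −0.92 (−0.95 to −0.89), so 2 of 3 members passed 2-fold beside 15.1% of all genes. The median ratio of all genes was 0.05, −0.22 and −0.29 in the 3 comparisons. With scaling by the median of ratios, which moved these comparisons by −0.25, 0.25 and 0.50, the sign of *KRT75* in telogen against anagen turned to 0.10, and the other 8 signs held. Under that scaling *KRT80* no longer passed 2-fold in telogen against catagen (−0.59), and when CPM was taken per cell and then averaged *KRT79* no longer did (0.96). With at least 1000 genes per cell *KRT75* passed 2-fold in catagen against anagen (1.01) and in telogen against catagen (−1.14).

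The share of cells gave another order than the level for *KRT75* and *KRT79*. After thinning, a *KRT75* UMI was found in 5.52% of anagen cells (5.12 to 5.95), 5.58% of catagen cells (5.14 to 6.06) and 6.97% of telogen cells (6.52 to 7.45), so telogen was highest by share and lowest by level. *KRT79* was found in 3.59%, 2.60% and 7.01% of cells, with catagen below anagen by share and above it by level. For *KRT80* the shares were 3.38%, 8.86% and 4.30%, in the order of its levels. Without thinning, *KRT75* had a UMI in 13.6%, 8.99% and 15.7% of cells, *KRT79* in 7.15%, 3.67% and 12.6%, and *KRT80* in 11%, 17.6% and 14.4%.

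Shares at this depth can include RNA that was free in the droplets, which was not measured here, and doublets (2 cells in 1 droplet) were left in. A cluster in which 6 of 6 endothelial markers were raised, beside mesenchymal and pericyte markers and in catagen 4 melanocyte markers, was taken as a background that should lack these keratins. It held 74 anagen, 68 catagen and 45 telogen cells, with a median of 3714.5, 1830.5 and 3992 UMIs. In it *KRT75* reached 17.0 CPM in anagen (6.23 to 37.0), 26.1 CPM in catagen (7.12 to 66.9) and 19.0 CPM in telogen (6.16 to 44.3). After thinning, 4.05% (0.844 to 11.4), 4.88% (0.596 to 16.5) and 4.88% (0.596 to 16.5) of its cells had a *KRT75* UMI. These intervals include the shares over the whole libraries, so the library shares of *KRT75* were not read as cells that express it. *KRT79* and *KRT80* had 0 UMIs there in anagen and catagen, where 0 of 74 and 0 of 41 thinned cells allow a share of up to 4.05% and 7.32%. In telogen the same cluster held 3 UMIs of each, or 11.4 CPM (2.35 to 33.2). Of its 41 thinned telogen cells 2 had a *KRT79* UMI, or 4.88% (0.596 to 16.5), which includes the library share of 7.01%. The limits at 0 UMIs lie above the library shares of *KRT79* in anagen (3.59%) and catagen (2.60%) and of *KRT80* in anagen (3.38%). These library shares, and the *KRT80* share in telogen (4.30%, with 41 thinned background cells), were likewise not read as cells that express the gene. Other clusters named for non-epithelial cells were not part of this background. The anagen smooth muscle or pericyte-like cells are set beside the hair cortex-like cells below. In smooth muscle or pericyte-like cells *KRT75* was at 40.2 CPM in anagen (23.0 to 65.3) and 57.0 CPM in catagen (39.5 to 79.6). *KRT80* was at 5.02 CPM (0.608 to 18.1) and 5.03 CPM (1.04 to 14.7) there. In 19 anagen endothelial-like cells *KRT80* had 1 UMI, or 12.1 CPM (0.306 to 67.2).

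*KRT75* was packed into very few cells. The richest cell held 827 *KRT75* UMIs in anagen, 534 in catagen and 527 in telogen, and in the cell with the largest share 3.03%, 2.41% and 3.56% of its UMIs were *KRT75*. It took 22 anagen, 49 catagen and 42 telogen cells to hold 50% of all *KRT75* UMIs, and the top 1% of cells (120, 121 and 145 cells) held 83.3%, 76.6% and 70.5%. At the same time 71.3%, 55.2% and 56.7% of the cells with any *KRT75* had a single UMI. *KRT79* was spread wider, with 111, 62 and 202 cells for 50% of its UMIs and at most 45, 89 and 126 UMIs in a cell. *KRT80* was the most even of the 3, with 342, 492 and 519 cells for 50% of its UMIs, at most 12, 34 and 17 UMIs in a cell, and 26.6%, 23.1% and 23.6% of its UMIs in the top 1% of cells.

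In anagen, 70.1% of all *KRT75* UMIs lay in cluster 20, which had 72 cells and was led by *WNT11*, *TF* and *TAGLN*. Its level was 13698 CPM (13442 to 13958), against 56.4 CPM in the other anagen cells. Of the 72 cells 1 had no *KRT75* UMI, 70 had at least 10 and 33 had at least 100, with a median of 66.5. Of the companion layer markers, *KRT17*, *FGF5* and *WNT11* were raised there, as were the suprabasal markers *SBSN*, *DSG1* and *SPINK5*. By the naming rule, which also asks 1 class to have the most markers among the 10 leading genes, this cluster stayed without a name. *KRT75* came next in cluster 7, led by *ATP6V1B1*, *NMB* and *PDZRN3* and with raised outer root sheath markers, at 251 CPM (237 to 267). At resolution 0.4 the highest anagen level was 1923 CPM.

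In catagen, cluster 14 held 69.8% of the *KRT75* UMIs at 6885 CPM (6760 to 7012), against 99.4 CPM in the other cells. It had 210 cells, was led by *KLK10*, *KLK12* and *KLK7* and was companion layer-like, by the same 3 companion markers as in anagen. Its cells ran from 47 without a UMI to 43 with at least 100, with a median of 33.5 *KRT75* UMIs. The second cluster, number 9 with 424 cells, led by *FGF18*, *PMP22* and *CST3*, reached 2246 CPM (2165 to 2330) and held 17.5%, with 261 of its cells at 0. A single cell of it held 534 UMIs, and without that cell its level was 1866 CPM. Its median depth was 2455 UMIs, against 7518 in cluster 14.

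In telogen *KRT75* was divided among 4 clusters. Cluster 17, with 94 cells led by *TF*, *KLK12* and *KLK10*, reached 3321 CPM (3228 to 3417) and held 27.4% of the UMIs, and 28 of its cells had at least 10. Cluster 8, with 765 cells led by *TAGLN*, *TPM1* and *S100A2* and with raised outer root sheath markers (*SOX9*, *LHX2*, *SPARC*, *LGR5* and *SFRP1*), reached 560 CPM (542 to 578) and held 21.4%. The inner root sheath-like cluster 12 reached 563 CPM (545 to 582) and held 19.9%, although 304 of its 392 cells had none and 28 had at least 10. The top cell of that cluster held 459 *KRT75* UMIs, and without it the level was 491 CPM. Cluster 3, the main *KRT79* cluster of that library, held 12.1% at 132 CPM, and 58 of its 1364 cells had at least 10. No telogen cluster had raised companion markers in the number a name needed. Only 4 of the 7 companion markers had a row, and *KRT16* among them was at 0.116 CPM in telogen. The missing name therefore does not decide whether companion cells were present.

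**Figure D2:**
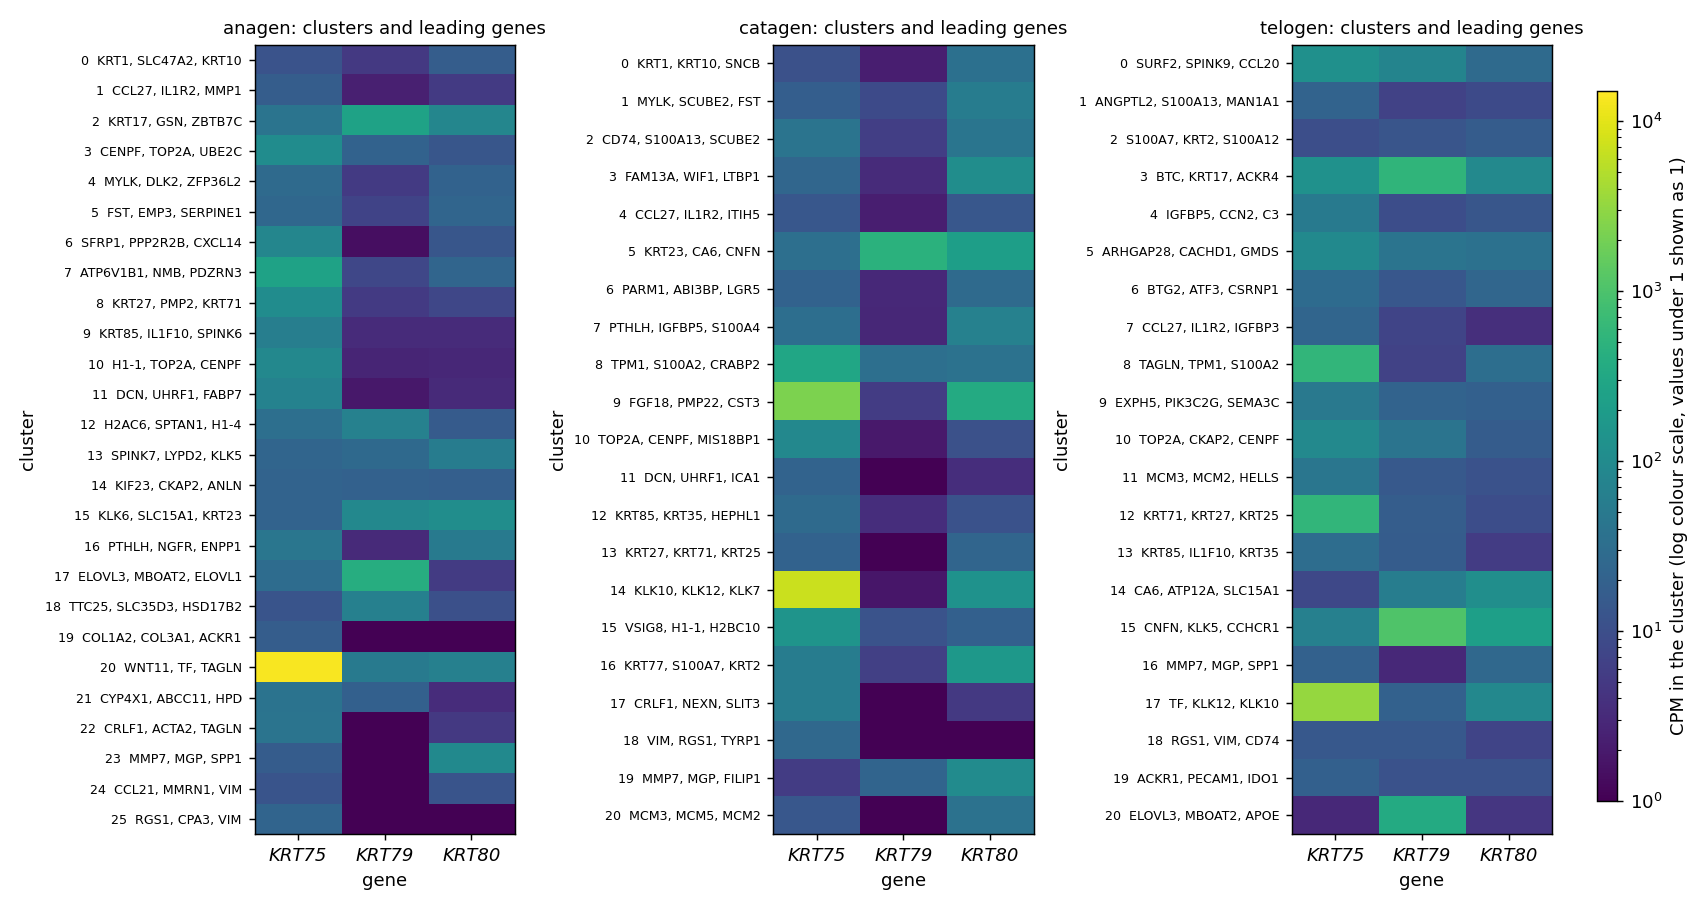
Level of *KRT75*, *KRT79* and *KRT80* in every cluster of the 3 libraries, as CPM on a log colour scale, with values under 1 CPM drawn at 1. Each row is 1 cluster with its 3 leading genes, and *KRT75* peaks at 13698 CPM in anagen cluster 20, 6885 CPM in catagen cluster 14 and 3321 CPM in telogen cluster 17, whereas *KRT79* peaks in other clusters.

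To look past single UMIs, which can be free RNA, cells with at least 3 UMIs of a gene among 1500 were called high. *KRT75* high cells numbered 165 in anagen (1.38%, 1.18 to 1.60), 240 in catagen (2.45%, 2.15 to 2.77) and 162 in telogen (1.40%, 1.19 to 1.63). Where high cells are set against other cells, here and below, the other cells are those with at least 1500 UMIs. In them the *KRT75* level was 30.4 CPM in anagen, 32.2 CPM in catagen and 57.1 CPM in telogen. The 0 anagen, 2263 catagen and 2932 telogen cells too shallow for thinning are in neither group. The level over all cells outside the high cells was therefore not compared between libraries. The leading cluster, number 20 in anagen, 14 in catagen and 8 in telogen, held 69, 124 and 60 of the high cells, which in all lay in 14, 13 and 14 clusters. Their median depth was 4252, 5885 and 8272.5 UMIs against 5277.5, 3983 and 6803 in the other thinned cells.

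The *KRT75* high cells were rich in *KRT17* and *KRT7* and poor in the suprabasal keratins. *KRT17*, a keratin of the follicle sheath and companion cells, was at 18709 CPM in anagen, 16690 CPM in catagen and 22363 CPM in telogen in the high cells, against 4751, 3264 and 6144 CPM in the other cells. *KRT7*, a keratin of simple and ductal epithelia, was at 198, 364 and 384 CPM against 38.6, 44.8 and 51.5 CPM. The differentiation keratins *KRT1* and *KRT10* were lower there: *KRT1* was at 818, 468 and 393 CPM against 4660, 4623 and 6346 CPM. *KRT10* was at 716, 691 and 1064 CPM against 3778, 5146 and 4883 CPM. The basal keratins *KRT5* and *KRT14* were within 1.5-fold of the other cells in each library. *KRT15*, a keratin of basal and bulge cells, was lower in anagen (79.8 against 298 CPM) and telogen (151 against 286 CPM) and not in catagen (789 against 672 CPM).

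Of the upper follicle genes, 2 of 8 measured ones in anagen, 3 of 8 in catagen and 3 of 8 in telogen were at least 2-fold higher in *KRT75* high cells with 10 CPM added, beside 3.03%, 4.65% and 2.34% of all genes, and 0, 1 and 0 were lower, beside 4.14%, 3.59% and 2.63%. The list's median log2 difference was below that of all genes, at −0.42, −0.16 and −0.29 beside −0.04, 0.07 and −0.05. The protease gene *KLK10* led this list in each library, at 878, 1061 and 1018 CPM against 125, 101 and 162 CPM, and the follicle transcription factor *SOX9* was at 1208, 1609 and 1098 CPM against 608, 488 and 380 CPM. Of the late epidermal differentiation genes, 1 of 14, 2 of 13 and 1 of 14 were higher and 6, 4 and 5 were lower, with a median log2 difference of −0.73, −0.28 and −0.28. The protease inhibitor gene *SPINK5* was the highest of them, at 1775, 4523 and 2991 CPM against 752, 1516 and 915 CPM. Desmosome genes gave medians of 0.16, 0.46 and 0.20, with *DSC2* at 635, 1239 and 593 CPM against 332, 517 and 388 CPM and the suprabasal desmocollin *DSC1* lower at 27.5, 41.1 and 36.0 CPM against 68.5, 144 and 80.4 CPM.

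In each library most *KRT79* UMIs lay in cells with raised suprabasal markers, in another cluster than the one richest in *KRT75*. In catagen 90.6% of its UMIs were in cluster 5, with 941 cells led by *KRT23*, *CA6* and *CNFN*, at 460 CPM (442 to 478) against 5.69 CPM in the other cells. At resolution 1.2 in place of 0.8, which gives more clusters, the highest catagen level was 878 CPM. In anagen cluster 2, with 1090 cells led by *KRT17*, *GSN* and *ZBTB7C*, held 59.3% at 258 CPM (246 to 270). *KRT10*, *SBSN*, *KRTDAP* and *SPINK5* were raised in both of these clusters. In telogen cluster 3, with 1364 cells led by *BTC*, *KRT17* and *ACKR4*, held 73.9% at 549 CPM (538 to 561), and cluster 15, with 100 cells led by *CNFN*, *KLK5* and *CCHCR1*, held 9.70% at the highest level, 1071 CPM (1010 to 1134). Under another linear algebra kernel (chosen after seeing the data) these 100 cells fell into a cluster of 758 cells led by *KLK5*, *KRT23* and *CNFN*, which held 52.4% of the UMIs at 696 CPM, and with the members kept among the variable genes the highest telogen level was 531 CPM. Both *KRT75* and *KRT79* occurred in cluster 3, where 145 and 538 of 1323 thinned cells had a UMI, and both were in 36 cells where 59.0 were expected. In none of the clusters that held most of the *KRT79* UMIs were upper follicle markers raised in the number a name needed, and in anagen *LRIG1*, *GATA6* and *FST* were raised in cluster 15, where *KRT79* was at 90.6 CPM (78.8 to 104). Only 4 of the 7 upper follicle markers had a row and a name needed at least 3, so a missing name does not decide whether these were upper follicle cells.

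The other site of *KRT79* was the sebaceous or lipid-like cells. In anagen these 162 cells, led by *ELOVL3*, *MBOAT2* and *ELOVL1*, had the highest *KRT79* level of all clusters, 403 CPM (364 to 447), and after thinning 47.5% of them had a UMI. In telogen the 42 cells led by *ELOVL3*, *MBOAT2* and *APOE* reached 360 CPM (316 to 409). They held 12.1% of the *KRT79* UMIs in anagen and 2.00% in telogen, and no catagen cluster took that name. Within them *KRT80* was at 5.41 CPM in anagen and 4.52 CPM in telogen, below its median over clusters in both libraries.

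*KRT79* high cells numbered 55 in anagen (0.459%, 0.346 to 0.597), 85 in catagen (0.867%, 0.693 to 1.07) and 180 in telogen (1.56%, 1.34 to 1.80). Of them 46, 84 and 156 lay in the clusters that held most of the UMIs, numbers 2, 5 and 3. They shared a high *KRT17* level with the *KRT75* high cells, at 17684 CPM in anagen, 13717 CPM in catagen and 19595 CPM in telogen against 4922, 3595 and 6178 CPM. *KRT7*, *KRT10* and *KRT23* went the opposite way from the *KRT75* high cells. *KRT14* was lower at 3083, 3906 and 4561 CPM against 10642, 11914 and 20794 CPM. *KRT5* was lower at 265, 471 and 329 CPM against 830, 1459 and 1561 CPM, and *KRT7* was lower at 2.27, 7.73 and 5.92 CPM against 41.6, 55.7 and 58.2 CPM. *KRT10* was higher at 7093, 11692 and 15663 CPM against 3708, 4930 and 4613 CPM. *KRT23*, a type I keratin, was higher at 109, 294 and 281 CPM against 24.8, 59.9 and 44.6 CPM. *KRT1* differed little in catagen (4337 against 4490 CPM) and was higher in telogen (14198 against 6093 CPM).

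**Figure D3:**
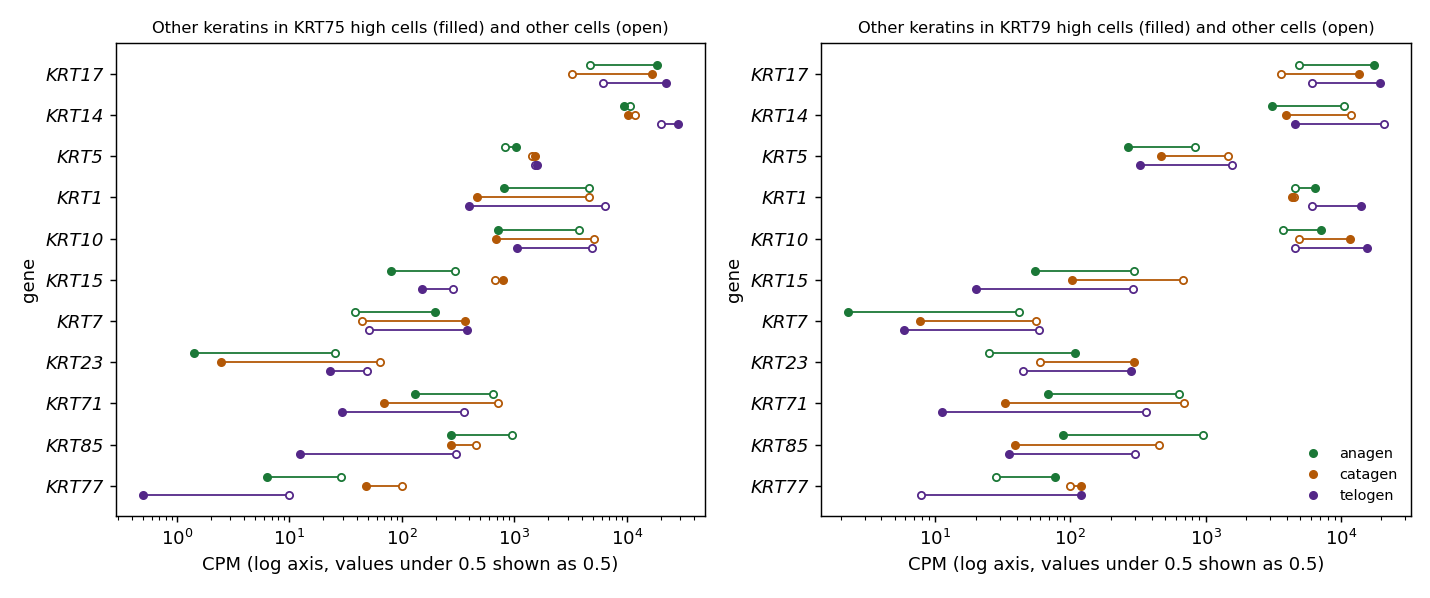
Levels of other keratins in the *KRT75* high cells (left, filled points) and *KRT79* high cells (right, filled points) against other cells (open points), in CPM on log axes, with 1 line for each library. The other cells are those with at least 1500 UMIs. *KRT17* is higher in both kinds of cells, *KRT7* is higher in *KRT75* high cells (198 to 384 CPM) and lower in *KRT79* high cells (2.27 to 7.73 CPM), and *KRT10* and *KRT23* go the opposite way.

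Late epidermal differentiation genes were higher in the *KRT79* high cells in all 3 libraries. At least 2-fold higher were 7 of 14 in anagen, 8 of 15 in catagen and 11 of 15 in telogen, beside 3.66%, 3.91% and 4.13% of all genes, and 1, 1 and 0 were lower, beside 6.2%, 6.4% and 4.44%. The list's median log2 difference was 1.07, 1.24 and 1.76, beside 0.01, −0.04 and 0.08 over all genes. The stratum corneum protease *KLK7* was at 2868, 1084 and 5933 CPM against 376, 192 and 747 CPM, and *SBSN*, a gene of the suprabasal layers, was at 8584, 14797 and 8975 CPM against 2662, 2434 and 1743 CPM. Of the upper follicle genes 3 of 9, 1 of 8 and 1 of 9 were higher and 0 were lower, with medians of 0.93, 0.39 and 0.78. *KRT7* is not on this list but served as an upper follicle marker when clusters were named. It was lower in the *KRT79* high cells of each library, as given above, and higher in the *KRT75* high cells. Of 9 measured desmosome genes 0, 0 and 3 were at least 2-fold higher and 2, 1 and 1 were lower, beside the shares of all genes given above. Their median log2 differences were 0.46, 0.37 and 0.61, above those of all genes. *DSG2*, a desmoglein of simple and basal epithelia, had the lowest ratio of them, at 31.7, 23.2 and 18.3 CPM against 101, 97.2 and 108 CPM. The high cells of both members were deeper in most libraries than the other cells, with medians for *KRT79* of 6682, 4713 and 9163.5 UMIs against 5245, 3996 and 6782.

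*KRT80* was found in the clusters of both other members. In catagen, where its level was highest, cluster 9 reached 361 CPM (328 to 395), cluster 5 reached 216 CPM (204 to 229), the suprabasal epidermal-like cluster 16 reached 168 CPM (149 to 188) and the companion layer-like cluster 14 reached 134 CPM (117 to 153). The first and the last of these were the *KRT75* clusters and cluster 5 was the *KRT79* cluster. They held 12.3%, 31.9%, 8.12% and 5.98% of the *KRT80* UMIs in the order given. In telogen cluster 15 was highest at 229 CPM (202 to 260), and cluster 3 reached 92.2 CPM (87.5 to 97.0) with 42% of the UMIs. Both were *KRT79* clusters, and under the other kernel the joint cluster of 758 cells was at 136 CPM, and at resolution 1.2 the highest telogen level was 139 CPM. The *KRT75* cluster 17 reached 89.2 CPM (74.4 to 106) in telogen. In anagen cluster 15, led by *KLK6*, *SLC15A1* and *KRT23*, was highest at 110 CPM (97.1 to 124), and its interval overlapped that of cluster 23 (96.7 CPM, 67.4 to 135, 31 cells led by *MMP7*, *MGP* and *SPP1*), whose own overlapped that of the *KRT79* cluster 2 (83.5 CPM, 76.9 to 90.5). The median level over clusters was 13.3 CPM in anagen, 37.7 CPM in catagen and 16.7 CPM in telogen.

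Few cells were high in *KRT80*, 3 in anagen, 24 in catagen and 2 in telogen, so only the catagen cells are described. Of these 24 cells 11 lay in cluster 5 and 10 in cluster 9. In them *KRT23* was at 1787 CPM against 57.4 CPM in the other cells, *SBSN* at 19423 CPM against 2516 CPM and *SPINK5* at 13556 CPM against 1580 CPM. *TGM1*, the transglutaminase of the cornified envelope, was at 186 against 12.8 CPM and *PRDM1*, a transcription factor of terminal differentiation, at 357 against 28.4 CPM. Of the late epidermal differentiation genes 10 of 16 were at least 2-fold higher and 1 was lower, beside 10.6% and 13.7% of all genes in the same 24 cells, with a list median of 1.57. Of the upper follicle genes, with *TGM1* and *PRDM1* among them, 3 of 8 were higher and 3 were lower. That list's median was −0.26, beside 0.03 over all genes. These levels are sums over the 24 cells, so deeper cells weigh more, and they were not split by cluster.

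Co-detection was measured after thinning as the number of cells with a UMI of both genes over the number expected from the product of their shares, on a log2 scale on which 0 is independence. *KRT79* and *KRT80* were found together more often than that in each library. Both were present in 54 anagen cells where 14.5 were expected, 67 catagen cells where 22.6 were expected and 115 telogen cells where 34.9 were expected, or 1.89 (1.48 to 2.28), 1.57 (1.2 to 1.91) and 1.72 (1.44 to 1.98). Of the *KRT79* cells 12.6%, 26.3% and 14.2% had *KRT80*, against 3.04%, 8.39% and 3.56% of the cells without *KRT79*. When the expected number was summed within clusters, the values were 0.82 (0.41 to 1.21), 0.43 (0.06 to 0.77) and 0.33 (0.05 to 0.59).

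*KRT75* and *KRT80* were co-detected to a lesser degree. Both were in 31 anagen cells where 22.4 were expected, 87 catagen cells where 48.5 were expected and 63 telogen cells where 34.7 were expected, or 0.47 (−0.09 to 0.98), 0.84 (0.53 to 1.15) and 0.86 (0.48 to 1.21). The anagen interval includes 0. Within clusters the values were 0.39 (−0.16 to 0.90), −0.12 (−0.44 to 0.18) and 0.31 (−0.07 to 0.67), and all 3 intervals include 0. Inside catagen cluster 9, where 118 of 326 thinned cells had *KRT75* and 134 had *KRT80*, both were in 39 cells where 48.5 were expected.

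*KRT75* and *KRT79* were not found together beyond their shares in any library. In catagen both were in 4 cells where 14.2 were expected, or −1.83 (−3.71 to −0.48). In anagen 21 cells against 23.7 expected gave −0.18 (−0.87 to 0.43) and in telogen 51 against 56.6 gave −0.15 (−0.57 to 0.24), and both intervals include 0. Within clusters the values were −0.20 (−0.89 to 0.41), −1.08 (−2.95 to 0.28) and −0.63 (−1.05 to −0.23), so the telogen interval lay below 0 within clusters. Single UMIs of either gene can be free RNA, so the high cells were also compared. Of 165 and 55 high cells in anagen and 240 and 85 in catagen, 0 were high in both, where 0.757 and 2.08 were expected, which allows up to 1.82% and 1.25% of the *KRT75* high cells. In telogen 3 of 162 and 180 were high in both, where 2.52 were expected. Over all cells exclusion was not detectable at this depth in the anagen and telogen libraries, and the catagen value rests on 4 cells. All 3 genes were found in 2 anagen, 2 catagen and 9 telogen cells, and exactly 1 of them in 1291, 1360 and 1685 cells.

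**Figure D4:**
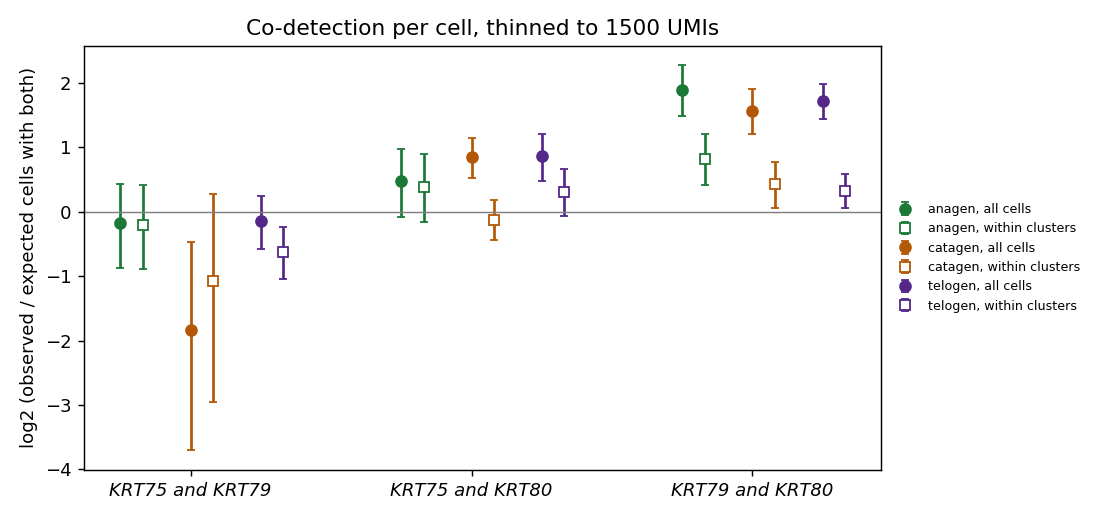
The log2 ratio of observed to expected cells with both genes of a pair after thinning to 1500 UMIs, for all cells of a library (filled circles) and with the expectation summed within clusters (open squares), with exact 95% intervals for counting error. *KRT79* and *KRT80* lie above 0 in each library (1.57 to 1.89 over all cells, 0.33 to 0.82 within clusters), and *KRT75* and *KRT79* lie at or below 0.

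Levels were then compared within the 7 cell classes that had a name in every library, which are the suprabasal epidermal-like, basal epidermal-like, bulge or outer root sheath-like, inner root sheath-like, hair cortex-like, mitotic-like and S phase-like cells. *KRT79* was highest in telogen in 7 of 7 classes, beside 5.79% of all genes that were above both other libraries in each class. The telogen levels ran from 7.17 CPM in basal epidermal-like to 40.9 CPM in mitotic-like cells, and the log2 ratios to anagen from 1.33 to 2.95. Levels of 6 of these 7 classes lay inside the interval of the telogen background cluster (2.35 to 33.2 CPM) and so were not read as expression, and the mitotic-like level lay above it. Of the 559 telogen mitotic-like cells 483 had no *KRT79* UMI and 13 had at least 10, so that level came from a minority of the class.

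*KRT80* was higher in catagen than in anagen in 7 of 7 classes, beside 17.9% of all genes, and 6 of the ratios had intervals above 0. In bulge or outer root sheath-like cells it was at 21.4 CPM in anagen, 47.2 CPM in catagen and 13.4 CPM in telogen, and in suprabasal epidermal-like cells at 16.8, 58.4 and 16.5 CPM. These 2 catagen levels lay above 24.1 CPM, the exact upper bound of the catagen background cluster with its 0 UMIs, and the other 5 catagen levels lay below it. The catagen suprabasal epidermal-like class joined 2 clusters, whereas anagen and telogen had 1 each. Cluster 16, with 189 of its 1876 cells, held 303 of its 602 *KRT80* UMIs. Cluster 0, the other one, was at 34.5 CPM without its top cell. How far the difference between libraries comes from the clusters that were joined was not tested. *KRT80* was highest in catagen in 5 classes and in telogen in the mitotic-like and S phase-like cells. These telogen levels, 16.7 and 11.4 CPM, lay inside the *KRT80* interval of the telogen background cluster and so were not read as expression. In S phase-like cells the log2 ratio of telogen to catagen was 0.51 (−0.32 to 1.40), an interval that includes 0.

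*KRT75* had no common order over the classes, with the highest level in anagen in 4, in catagen in 1 and in telogen in 2. With median-of-ratios scaling telogen was above anagen in 4 of the 7 classes in place of 2. Levels of 2 classes in anagen, 6 in catagen and 4 in telogen did not exceed the upper bound of the background cluster (37.0, 66.9 and 44.3 CPM), among them all values in basal and suprabasal epidermal-like cells, which gave the catagen and 1 of the telogen maxima. In inner root sheath-like cells it was at 109 CPM in anagen, 20.8 CPM in catagen and 563 CPM in telogen, the last mostly from the few cells described above. In mitotic-like cells it was nearly level, at 97.5, 87.6 and 92.2 CPM. There the log2 ratios to anagen were −0.16 (−0.35 to 0.04) in catagen and −0.08 (−0.22 to 0.05) in telogen, and both intervals include 0. In bulge or outer root sheath-like cells, highest in anagen at 74.8 CPM against 26.2 and 49.8 CPM, 1 anagen cell held 115 of the 335 UMIs. Without that cell its cluster was at 51.1 CPM. The anagen class also held cluster 16, with 41 *KRT75* UMIs in 180 cells and 34.9 CPM without its own top cell. The class level without the cell of 115 UMIs was not computed, so the order of anagen and telogen in this class was not read. In S phase-like cells, where anagen was highest at 72.0 CPM against 20.4 and 43.9 CPM, 1 anagen cell held 95 of the 229 UMIs, and without it the level was 42.4 CPM. In hair cortex-like cells, the class of the shaft, it was at 61.7, 27.5 and 30.7 CPM. The anagen level there lay below 65.3 CPM, the upper bound in the anagen smooth muscle or pericyte-like cells.

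**Figure D5:**
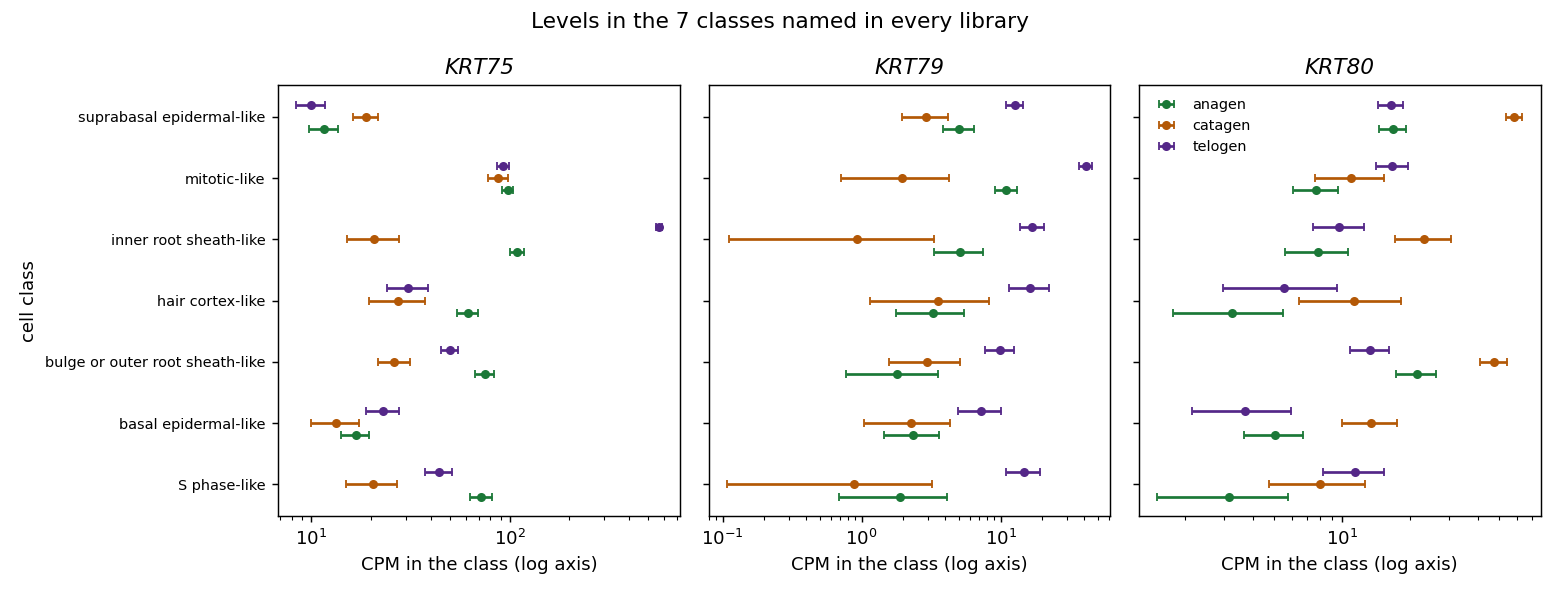
Level of each gene in the 7 classes named in all 3 libraries, in CPM on log axes, with exact 95% Poisson intervals. *KRT79* in telogen lies to the right of the other libraries in all 7 classes (7.17 to 40.9 CPM), *KRT80* in catagen lies to the right of anagen in all 7, and *KRT75* stands out in telogen inner root sheath-like cells (563 CPM).

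The genes whose level over clusters was most like that of a member were found by Pearson's r of log2(CPM + 10), averaged over the 3 libraries, among 2612 named genes that reached 50 CPM in some cluster of each library. The points are 26, 21 and 21 clusters that share a library and differ in size, so the values are a description. For *KRT75* the 5 genes were *DPYSL3* (0.71), *PDZRN3* (0.71), *FKBP1B* (0.70), the transferrin gene *TF* (0.66) and *PPFIBP2* (0.65). *DPYSL3*, which codes for a cytoskeletal regulator, had its own highest level in the top *KRT75* cluster of each library, at 131, 186 and 56.5 CPM. For *KRT79* they were *PLIN2* (0.57), *C5orf46* (0.57), *ELOVL4* (0.57), *KRT23* (0.57) and *CA6* (0.55), of which *PLIN2* codes for a lipid droplet protein, *ELOVL4* for an enzyme of very long fatty acids and *CA6* for a secreted carbonic anhydrase. None of these 5 peaked in the top *KRT79* cluster of every library. In that cluster *KRT23* was at 9.74 CPM in anagen and *PLIN2* at 83.2 CPM in telogen, against 488 and 1387 CPM at their own peaks. The r of *CA6* was 0.31, 0.92 and 0.43 in anagen, catagen and telogen. For *KRT80* they were *MCUR1* (0.81), *SCEL* (0.79), *CLIP1* (0.78), *SPINK5* (0.77) and *KANK1* (0.77), of which *SCEL* codes for sciellin, a precursor of the cornified envelope. With the clustering under the other kernel, 3, 3 and 4 of the 5 were again among the first 5. Among the members themselves the mean r was 0.46 for *KRT79* and *KRT80*, 0.32 for *KRT75* and *KRT80* and 0.03 for *KRT75* and *KRT79*.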

How the data were processed

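The authors deposited raw counts, whole numbers of UMIs for every gene and cell barcode, without normalization. Per the file headers they were made with Cell Ranger 4.0.0 (anagen), 3.1.0 (catagen) and 6.0.2 (telogen), and the submitters' processing notes name 2.1.1. The genome build is not given in the sources used here. Barcodes with 200 or more detected genes entered. Sums per library, cluster or class are CPM with exact Poisson intervals, ratios have exact binomial intervals, and shares have Clopper-Pearson intervals, each at 95% and for counting error only. A count of 0 was given a limit of 3 counts. The functions were tested on simulated data. Seurat 5.3.0 in R 4.3.3 clustered each library alone, after log-normalization, with 1997 of 2000 variable genes (the members left out), 30 components, 20 neighbours and resolution 0.8. The study integrated its libraries, which was not done here.

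A cluster was named from at least 3 markers at 1.5-fold or more over the other cells with 10 CPM added, and the most markers of 1 class among its 10 leading genes. These limits were set with the clusters in view. The catagen background cluster met the rule for melanocytes while 6 of 6 endothelial markers were raised too, so that name is not used. Scrublet (scanpy 1.11.5) called 0 cells in each library by its own threshold, which had therefore not worked, and doublets were left in. The text names the members, the 5 genes most like each, keratins with at least 100 CPM in high cells, the 3 highest and 3 lowest genes of the upper follicle, late epidermal differentiation and desmosome lists, and leading genes and markers of clusters. List genes outside that rule were chosen after their values were seen. The members, lists and settings were chosen with earlier results of these data known. No test was run, as each stage has 1 library. Python 3.11.15 with numpy 2.4.6, pandas 2.3.3 and scipy 1.17.1 was used.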

Additional observations from a re-analysis of the deposited data

How the results depend on the processing

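No library can be left out of its stage, and no paired analysis was possible because each stage has 1 library. The direction of the ratios and co-detection values held under all alternatives run except for 2 results, which turned in sign as given below. Ratios are log2 and named in the order catagen over anagen, telogen over anagen, telogen over catagen, and the cause of each move was not tested. With median-of-ratios scaling *KRT75* was 0.52, 0.10 (turned in sign) and −0.42, *KRT79* was 0.28, 1.88 and 1.59, and *KRT80* was 1.35, 0.76 and −0.59. When CPM was taken per cell and then averaged, *KRT75* was 0.69, −0.0326 and −0.73 and *KRT79* was 0.32, 1.29 and 0.96. With at least 1000 genes per cell, *KRT75* was 1.01 in the first and −1.14 in the last comparison and *KRT79* was 0.68, 1.69 and 1.01. With the smallest anagen UMI total asked of every cell, *KRT75* was 0.85 in the first and −0.98 in the last comparison and *KRT79* was 0.61 in the first. Without the highest 5% of Scrublet scores, *KRT75* was 0.74 in catagen over anagen.

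For co-detection, thinning to 3000 UMIs gave −0.91 for *KRT75* and *KRT79* in anagen and 0.45 for *KRT75* and *KRT80* in catagen. Without thinning, *KRT75* and *KRT79* in telogen turned to 0.46 and *KRT79* and *KRT80* in anagen were at 1.43. With at least 3 UMIs of each gene, *KRT75* and *KRT79* in telogen turned to 0.25, on 3 cells where 2.52 were expected. *KRT79* and *KRT80* were at 3.85 in catagen, on 3 cells where 0.208 were expected. They were at 5.01 in telogen, on 1 cell where 0.031 were expected, so these values rest on very few cells. The other pairs gave no value because no cell had both. Without a cell filter no ratio, and without barcodes shared between libraries (an alternative chosen after seeing the data) no ratio or co-detection value, moved by more than its interval. The level of *KRT75* in its top anagen cluster fell from 13698 to 1923 CPM at resolution 0.4. Of the 9 top cluster levels, 2 moved beyond their intervals at resolution 0.4, 5 at resolution 1.2, 4 with the members kept among the variable genes and 3 under another linear algebra kernel, which was also chosen after seeing the data. With 1 library per stage, no value here has a spread between animals.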
